A study of Mus musculus with 11 samples.

Results

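The 10 genes described here, Pou5f1, Sox2, Nanog, Utf1, Tet1, Pou3f1, Esrrb, Klf4, Zfp42 and Dppa4, are regulators of naive and formative pluripotency, 10 of the 21887 protein-coding genes in the gene table. They were taken as a named list by a rule that uses no measured value, although the list was drawn up with results of these data known. For each, the peaks of H3K4me3 (histone H3 trimethylated on lysine 4) within 1000 bases of an end of its span on mm10 were collected in each genotype, as were WDR5 and P53 peaks within 5000 bases of the span. The values come from deposited CUT&RUN peak lists. In that assay an antibody on chromatin guides a nuclease that releases the bound DNA for sequencing. All cells were mouse embryonic stem cells with GFP knocked into Rx, grown as embryoid bodies to day 2 by the SFEBq method, which steers the aggregates towards anterior neural tissue. In every group 5% KSR (knockout serum replacement) was used, doxycycline was removed at day 0 and 2% matrigel was added at day 1. The groups were wild type (WT), Wdr5 KO (KO) and Wdr5 and p53 double KO (DKO). The sources used here do not say which parts of Wdr5 and p53 are deleted, what doxycycline controlled or how many clones were used.

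Pluripotency rests on a small set of transcription factors. OCT4 (Pou5f1) and SOX2 bind DNA together and, with NANOG, ESRRB and KLF4, hold the naive state that ZFP42 (REX1) marks, while POU3F1 (OCT6) comes up as cells move to the formative state and towards neural fate. H3K4me3 marks the starts of active and poised genes, above all those rich in CpG, and long stretches of it are known at genes of cell identity. WDR5 is a core scaffold of the MLL and SET1 complexes that write the mark, and P53 is a stress-activated transcription factor that has been reported to restrain pluripotency genes.

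Each genotype had 1 H3K4me3 list, with 9836 peaks from 34.2 M fragments in WT, 918 peaks from 22.3 M in KO and 6418 peaks from 43.2 M in DKO. With a single library per genotype there is no replicate check and no test between genotypes, and no p-value is given. Differences between the lists can therefore come from the libraries as well as from the genotypes, which cannot be told apart. WDR5 and P53 had 2 lists each in WT and DKO, but for WT WDR5, WT P53 and DKO WDR5 list 2 repeated list 1 to the base at 75.3% to 80.3% of its summits (10.6% for DKO P53), so a pair is not read as replicates. Of 25 marker genes of other cell types (trophoblast, primitive endoderm, mesoderm, neural, fibroblast), 3 had an H3K4me3 peak at an end in WT (Eomes, Six6 and Thy1, fold enrichment 3.07 to 3.80) and 0 in KO and DKO. Over all protein-coding genes the shares were 35.5% in WT, 3.2% in KO and 22.8% in DKO, so the KO count is close to the share of all genes. The neural genes among these markers belong to the fate that the culture is steered towards.

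H3K4me3 was called at 8 of the 10 genes in WT, against 35.5% of all protein-coding genes. The 8 were Pou5f1, Sox2, Utf1, Tet1, Pou3f1, Klf4, Zfp42 and Dppa4, and the exceptions were Nanog and Esrrb. In KO the mark was called at 5, against 3.2% of all protein-coding genes, namely Pou5f1, Sox2, Utf1, Tet1 and Pou3f1, while Klf4, Zfp42 and Dppa4 had no call. In DKO it was called at 8, against 22.8%, which were the KO 5 with Zfp42, Dppa4 and Nanog. Of the genes marked in WT, 5 of these 8 were also called in KO, beside 8.98% of all 7762 marked genes, and 7 of 8 in DKO, beside 59.8%. The 5 called in KO were all called in DKO, beside 94.3%, and of the 3 not called in KO 2 were called in DKO, beside 56.3%. Of the 2 genes with no WT peak at an end, 0 were called in KO, beside 0.0283%. The counts therefore describe the list and are no test of it. They also depend on how many peaks each list holds: with each list held to its 918 peaks of highest -log10 q, the order turned, with the WT list marking 2 of the genes, the KO list 5 and the DKO list 1 (4.35%, 3.2% and 3.9% of all protein-coding genes).

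**Figure D1:**
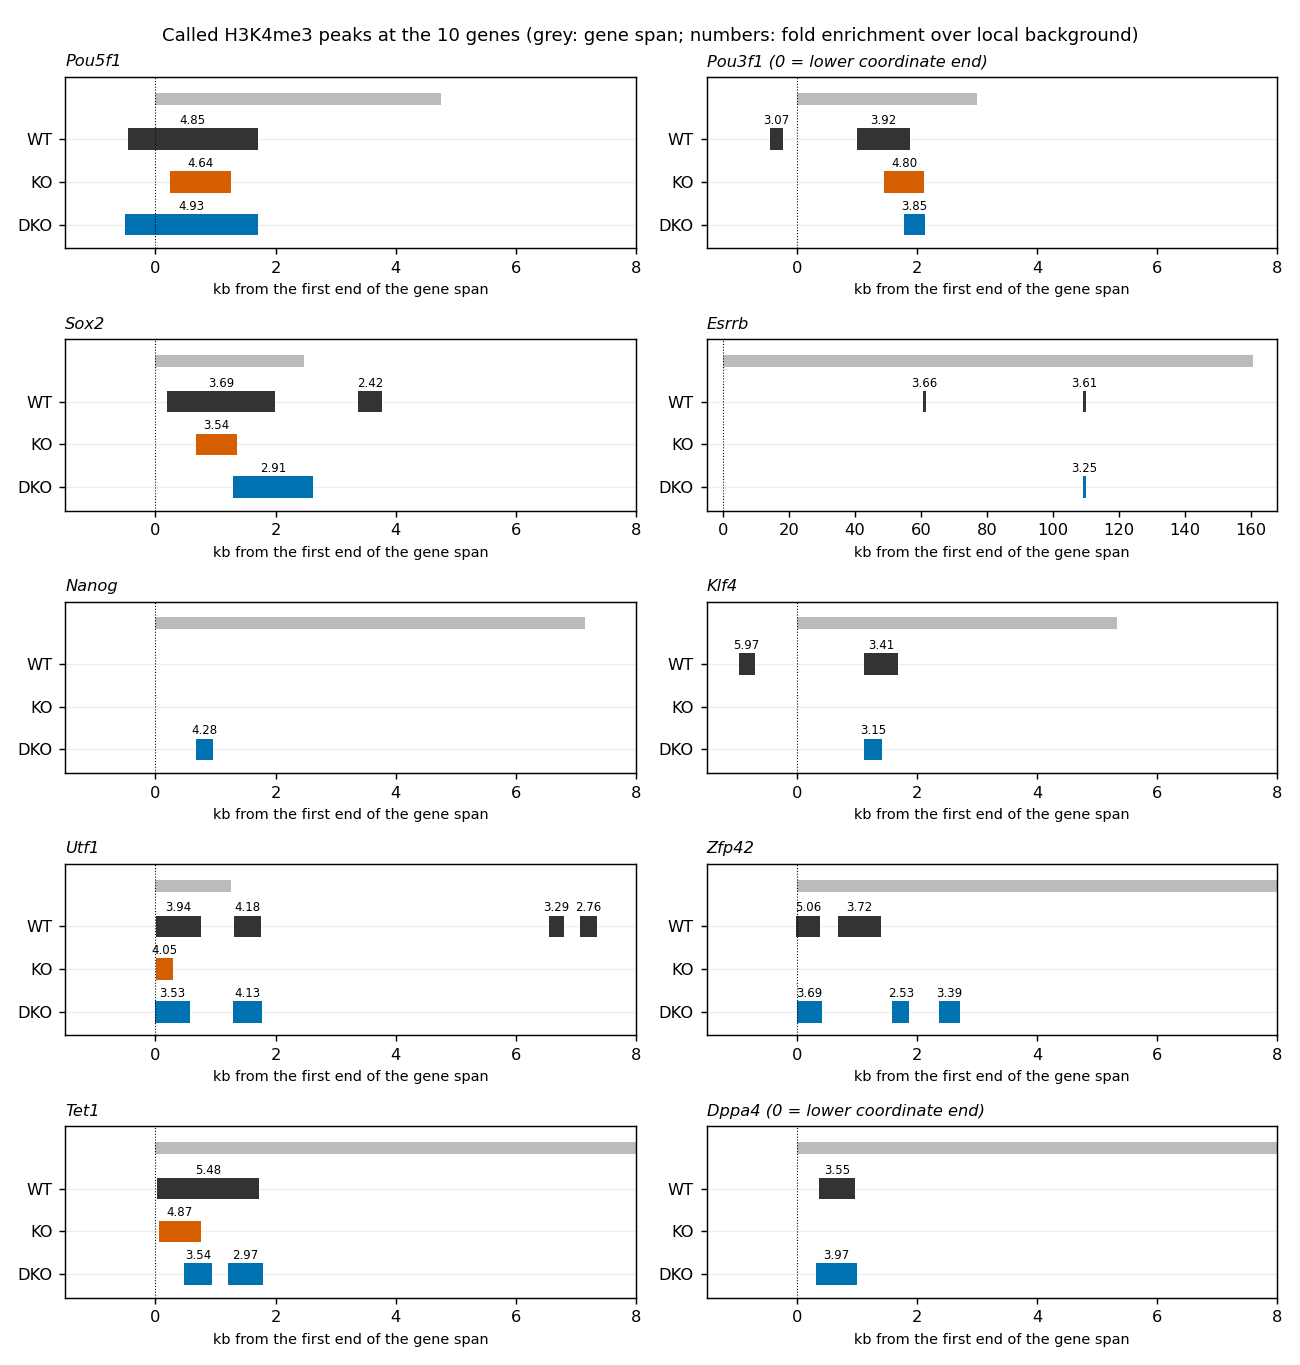
Positions of called H3K4me3 peaks (black WT, orange KO, blue DKO) against kb from the first end of each gene span (grey bar, clipped at 8 kb except for Esrrb), with the fold enrichment of each peak above it. KO peaks appear at Pou5f1, Sox2, Utf1, Tet1 and Pou3f1, those at Pou5f1, Sox2, Utf1 and Tet1 inside the WT peaks.

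The sequence before the start was available from RefSeq (GRCm38.p6, the assembly of mm10) for 8 of the 10 genes, with 11 starts in all; Pou3f1 and Dppa4 were not in the table. The 6 stretches below are the 250 bases before the first listed start, read 5′ to 3′ on the gene's strand, with each CpG dinucleotide in capitals. They are shown because H3K4me3 is known to follow CpG content, and because the calls of these genes differed. Pou5f1, Sox2 and Tet1 were called in WT and KO, Klf4 and Zfp42 in WT and not in KO, and Nanog in neither. The stretches of Utf1, also called in KO, and of Esrrb are not printed. They lie at chr17:35505782-35506031 (plus strand, Pou5f1), chr3:34649745-34649994 (plus, Sox2), chr10:62887325-62887574 (minus, Tet1), chr4:55532476-55532725 (minus, Klf4), chr8:43307010-43307259 (minus, Zfp42) and chr6:122707239-122707488 (plus, Nanog).
Pou5f1: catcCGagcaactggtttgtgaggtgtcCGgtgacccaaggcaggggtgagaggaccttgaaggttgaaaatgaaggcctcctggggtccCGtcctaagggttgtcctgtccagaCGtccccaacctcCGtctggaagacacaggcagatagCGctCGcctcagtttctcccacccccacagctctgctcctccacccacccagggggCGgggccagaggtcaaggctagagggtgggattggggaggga
Sox2: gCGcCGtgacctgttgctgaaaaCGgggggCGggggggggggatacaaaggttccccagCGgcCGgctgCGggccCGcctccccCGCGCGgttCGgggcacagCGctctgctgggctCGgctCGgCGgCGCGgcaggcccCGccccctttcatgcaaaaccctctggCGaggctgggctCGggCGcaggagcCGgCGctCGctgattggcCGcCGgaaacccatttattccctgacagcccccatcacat
Tet1: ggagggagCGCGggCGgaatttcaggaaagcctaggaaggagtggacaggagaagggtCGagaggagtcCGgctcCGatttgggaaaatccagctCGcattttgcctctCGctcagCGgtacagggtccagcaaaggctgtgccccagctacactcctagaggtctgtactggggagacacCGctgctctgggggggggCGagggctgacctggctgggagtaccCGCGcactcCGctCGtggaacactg
Klf4: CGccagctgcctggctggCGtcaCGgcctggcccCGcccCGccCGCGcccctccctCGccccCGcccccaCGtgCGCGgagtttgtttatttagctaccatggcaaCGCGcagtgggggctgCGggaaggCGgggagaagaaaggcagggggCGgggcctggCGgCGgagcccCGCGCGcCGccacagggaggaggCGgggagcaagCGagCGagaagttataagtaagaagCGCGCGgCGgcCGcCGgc
Zfp42: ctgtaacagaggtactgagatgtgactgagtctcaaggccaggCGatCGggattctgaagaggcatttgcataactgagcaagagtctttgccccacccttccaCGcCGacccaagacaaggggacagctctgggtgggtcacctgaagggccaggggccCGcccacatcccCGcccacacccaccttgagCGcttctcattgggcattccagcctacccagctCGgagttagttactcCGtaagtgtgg
Nanog: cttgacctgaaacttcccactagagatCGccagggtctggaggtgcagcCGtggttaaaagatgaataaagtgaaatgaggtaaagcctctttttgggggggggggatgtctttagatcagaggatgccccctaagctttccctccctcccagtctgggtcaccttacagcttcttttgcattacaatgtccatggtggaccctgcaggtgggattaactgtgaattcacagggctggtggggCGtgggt

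CpG content before the start ranged widely among the genes and did not sort them by their calls. Klf4 held 32 CpG in its 250 bases and Sox2 27, both at or above the 90th percentile of 21263 such stretches, whose median was 10. Tet1 had 15, Utf1 14, Zfp42 9, Pou5f1 8, Esrrb 6 at its first start and Nanog 3. Klf4, with the most CpG, had no KO call, and Pou5f1, below the median of all starts, was called in all 3 libraries. Over all genes with a sequence, the median was 19 CpG where a WT peak was also called in KO (572 genes), 18 where it was called in DKO and not KO (3304 genes), 18 where it was called in WT alone (2457 genes) and 5 where WT had no peak (11159 genes). Between 79.0% and 83.0% of the genes in these classes had a sequence. CpG content thus set marked from unmarked genes apart, while the classes among the marked genes differed by at most 1 CpG in the median.

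**Figure D2:**
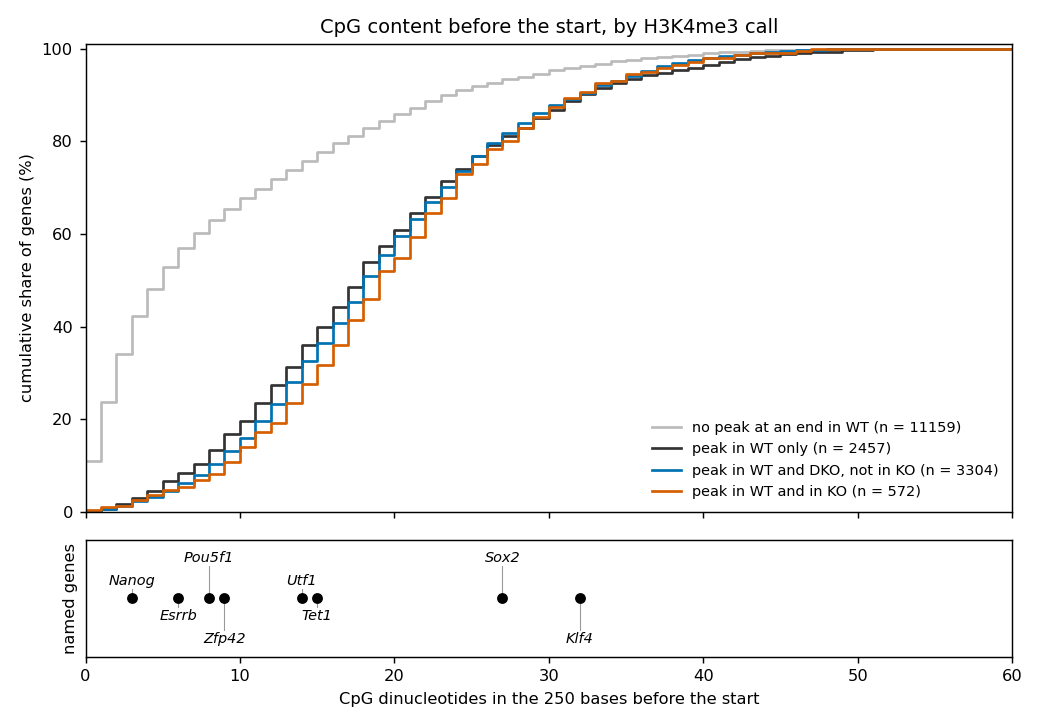
Upper panel, cumulative share of genes (%) against the number of CpG dinucleotides in the 250 bases before the start (the start with most CpG where a gene has several), by H3K4me3 call; lower panel, the 8 named genes with a sequence. The curves of marked genes lie close together, and the named genes spread from 3 CpG at Nanog to 32 at Klf4.

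Short motifs were searched in the same 250 bases on both strands. The octamer core TTTGCAT, part of the site of OCT4 and other POU factors, lay 75 bases before the first Nanog start, 185 before the Zfp42 start and, on the reverse strand, 99 before the Sox2 start, and 3.86% of all stretches hold it. In Nanog it was followed, after 1 base, by ACAATG, a SOX-type motif, at 67 bases (9.35% of all stretches). These letters, tttgcattacaatg, can be read in the Nanog stretch printed above. ACAATG also lay 158 bases before the second Pou5f1 start, whose stretch is not printed. GGGCGG, a GC box bound by SP and KLF factors, was in 42.6% of all stretches and in those of Sox2, Klf4, Utf1, Zfp42, Tet1 and Pou5f1, with 4 matches each in Klf4 and Utf1. Each GC box also contains a CpG, so those counts overlap. TATAAA was in none of the 11 stretches (11.6% of all), and CACGTG, the E box, was in Klf4 (6.63% of all). A match is no evidence that a factor binds there.

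Pou5f1, which encodes OCT4, carried one of the widest H3K4me3 peaks in every library. The WT peak on chromosome 17, from 35505572 to 35507732, was 2161 bases wide, rank 12 of 9836 by width. In DKO it ran from 35505522 to 35507732 (2211 bases), rank 4 of 6418, and in KO from 35506270 to 35507295 (1026 bases), rank 28 of 918. The WT and DKO peaks ended on the same base and covered the whole printed stretch before the start. The KO peak began 238 bases inside the gene and lay wholly inside the WT peak. Its fold enrichment, the summit pileup over the local background of the same library, was 4.85 in WT, 4.64 in KO and 4.93 in DKO, close to the median of marked genes in WT (4.72) and KO (4.60) and above 84.3% of them in DKO. By width, the WT value exceeded those of 99.7% of marked genes, the KO value 98.3% and the DKO value 99.9%. Its WT and DKO peaks also covered the end of Gm32362, a lncRNA gene named here after its place was seen, as are all lncRNA genes below.

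Sox2, whose product pairs with OCT4, is a gene of 2467 bases inside the long lncRNA gene Sox2ot, and its peaks differed in position among the libraries. In WT a peak of 1806 bases (rank 46 by width) covered 188 to 1993 bases past the start, and a second of 403 bases lay 905 bases beyond the far end. In KO 687 bases remained called, from 671 to 1357 past the start and inside the WT peak. The DKO peak of 1328 bases lay farther along, from 1294 to 2621, with its summit at 1980 against 1111 in WT and 950 in KO. That DKO peak began outside the window around the start and was counted because it covered the far end of the gene. The KO and DKO peaks therefore shared 64 bases, or 9.32% of the KO and 4.82% of the DKO peak. Fold enrichment was low in each library, with 3.69 in WT, 3.54 in KO and 2.91 in DKO, which are at the 12.1, 2.28 and 0.66 percentiles of marked genes. The local background at the main summits was high, at 13.9 fragments in WT, 9.2 in KO and 14.8 in DKO, against medians over peaks of 5.53, 3.84 and 5.98. That background is taken over the 10 kb around a peak in the same library, so it includes the marked stretch itself.

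Utf1, a chromatin-associated factor of stem cells encoded by a gene of 1257 bases, had a peak at each end in WT and DKO. The peak at the start ran from 8 to 751 bases past it in WT (fold enrichment 3.94) and from 10 bases before to 571 past it in DKO (3.53). The one beyond the far end had 4.18 and 4.13. In KO the start peak was called, from 14 to 300 bases (287 bases wide, 4.05), and the one at the far end was not. Its KO width was 24.0% of the summed WT width, the lowest share of the 5 genes. The 8 WT-marked genes included 4 with 2 peaks at their ends, beside 17% of all marked genes.

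Tet1 encodes an enzyme that oxidises 5-methylcytosine, and it had the highest WT pileup of the 10 genes, 72 fragments at the summit. The WT peak, on chromosome 10 from 62885739 to 62887440, was 1702 bases wide, with a fold enrichment of 5.48 and a -log10 q of 26.54, above 96.7% of marked genes. From the listed start it covered 116 bases before to 1585 after in WT and 92 before to 616 after in KO. The summits of WT and KO lay 339 and 338 bases after that start, 1 base apart. In DKO the start itself was not covered. The marked stretch was split there into a peak from 335 to 793 bases (459 bases, fold enrichment 3.54) and another from 1067 to 1643 bases (577 bases, 2.97). The second of these lay 1212 bases from the end of the span, outside the window, and would bring the DKO width from 459 to 1036 bases. The KO peak had a fold enrichment of 4.87, between the WT and DKO values.

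Pou3f1 encodes OCT6, the POU factor of the formative state. In WT a narrow peak of 218 bases lay 227 bases outside the lower coordinate end of its span and 68 bases from an end of the lncRNA gene Gm2164, and a peak of 885 bases lay inside the gene, 998 bases from that end and so just within the window. The KO peak (660 bases) and the DKO peak (354 bases) lay farther in, from 1462 and 1789 bases, and 888 and 867 bases from the other end. The DKO peak shared 94.1% of its bases with the KO peak and 26.6% with the WT peaks. Fold enrichment was 3.92 in WT, 4.80 in KO and 3.85 in DKO. The KO value was above that of the inner WT peak, as at the start peak of Utf1 (4.05 against 3.94), and below the WT value at Pou5f1, Sox2 and Tet1. The outer WT peak of Pou3f1 was not called in KO or DKO.

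Klf4, Zfp42 and Dppa4 were marked in WT and had no KO peak. Klf4, a Krüppel-like factor of the naive state, had a WT peak of 268 bases, 699 bases before the start and 464 bases inside the lncRNA gene Gm12506, with the highest fold enrichment of the 10 genes (5.97) and the smallest summed width within the window. A second WT peak inside the gene (572 bases, 3.41) lay 1121 bases from the end, and the DKO peak there (306 bases, 3.15) lay 1118 bases away, so both fell just outside the window of 1000. With a window of 2000 bases, Klf4 counted as marked in DKO and its summed WT width was 840 bases in place of 268. The peak before the start was absent from the DKO list.

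Zfp42, which encodes the naive state marker REX1, had WT peaks of 399 bases over the start (5.06) and of 725 bases from 682 bases on (3.72). In DKO the start peak was called with nearly the same borders, from 7 to 425 bases against 7 before to 391 in WT (419 bases, 3.69), and 91.9% of it lay on WT peaks. The second WT peak had no DKO counterpart at its place. Instead, DKO peaks lay 1594 and 2374 bases from the end (2.53 and 3.39), outside the window. Local background at the start summit was 5.3 fragments in WT and 10.7 in DKO.

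Dppa4, a DNA-binding factor that works with DPPA2 at CpG-rich genes, had a small peak 377 bases from the lower coordinate end in WT (598 bases, fold enrichment 3.55, pileup 18). The DKO peak (669 bases, 3.97, pileup 22) covered all of the WT peak. Its WT -log10 q of 3.84 was above 4.83% of marked genes, the lowest position among the 8. The nearest KO peak to Dppa4 was 4143 kb away, at Atp6v1a and Naa50, to Zfp42 1628 kb and to Klf4 176 kb, at Rad23b.

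Nanog and Esrrb had no WT peak at an end. At Nanog, the homeobox factor of the naive state, the nearest WT peak was 26.8 kb from an end, and the nearest KO peak was 98.2 kb away at an end of Gdf3. In DKO a peak of 280 bases, on chromosome 6 from 122708163 to 122708442, lay 674 bases inside the gene with a fold enrichment of 4.28, a pileup of 36 and a -log10 q of 9.57. Of the 14125 protein-coding genes without a WT peak at an end, 2.56% had one in DKO. Its q was above 74.4% of genes marked in DKO, while its width was above 13.3% of them. No H3K4me3 peak covered any base of the printed Nanog stretch in any library, and the same held for the printed Sox2 and Klf4 stretches.

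Esrrb, an orphan nuclear receptor gene of 160512 bases, was marked inside the gene. Peaks inside the span with none at an end were found in WT for this gene alone of the 10 (4.74% of all protein-coding genes), in KO for 0 (0.649%) and in DKO for Esrrb and Klf4 (3.89%). A WT peak of 348 bases (3.66) began 22 bases after the second listed start, on chromosome 12 from 86421666 to 86422013, and was not called in KO or DKO. A second WT peak from 86470189 to 86470498 (3.61) overlapped a DKO peak from 86470306 to 86470931 (626 bases, 3.25), 50.7 kb from the nearer end. With peaks anywhere in the span counted, Esrrb was thus marked in WT and DKO, and 9 genes were marked in WT, 5 in KO and 10 in DKO. The nearest KO peak was 626 kb away, at Pomt2 and Gstz1.

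**Figure D3:**
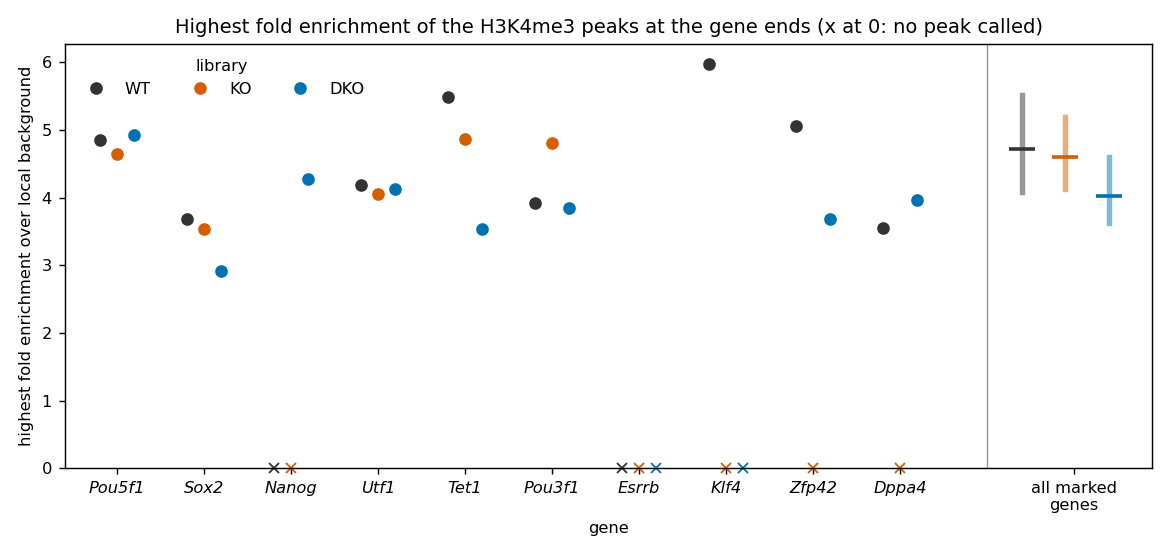
Highest fold enrichment over local background of the H3K4me3 peaks within 1000 bases of an end, by gene and library (crosses at 0 mark no call), with the median (dash) and middle 50% (bar) of all marked genes at the right. The values are each library's own and are not scaled to each other; Klf4 in WT is highest at 5.97 and Sox2 in DKO lowest at 2.91.

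Summed widths in WT were above the median of marked genes at 6 of the 8 genes, while Dppa4 and Klf4 were below it. The median summed width at the ends was 1159 bases over the 8 genes, from 268 at Klf4 to 2209 at Sox2, beside 677.5 bases (middle 50% 434 to 965) over all 7762 marked genes. The sum holds 2 peaks at 4 of the 8 genes, and single peaks of Utf1, Zfp42, Pou3f1, Dppa4 and Klf4 were 218 to 885 bases wide. The median of the highest fold enrichment was 4.52, beside 4.72. In KO the 5 genes had a median width of 687 bases beside 387, and in DKO the 8 genes had 564 beside 536. Sox2 and Pou5f1 were above 99.8% and 99.7% of WT-marked genes by width, and Tet1 above 98.1%.

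The KO peaks were narrower than the WT peaks at each of the 5 genes, as at 98.9% of the 697 genes marked in both. Width in KO was 59.8% of WT at Pou3f1, 47.5% at Pou5f1, 41.7% at Tet1, 31.1% at Sox2 and 24.0% at Utf1. The median of 41.7% is beside 41.3% (middle 50% 31.4 to 54.4) over all genes marked in both, a difference far smaller than the spread among genes. In DKO, width was 112% of WT at Dppa4, 102% at Pou5f1, 88.9% at Utf1, 60.1% at Sox2, 37.3% at Zfp42, 32.1% at Pou3f1 and 27.0% at Tet1. The values of Zfp42 and Tet1 depend on the window: with 2000 bases their DKO widths rose from 419 to 702 and from 459 to 1036 bases, while their WT widths stayed at 1124 and 1702. Here the genes spread on both sides of the median of 74.2% over all genes (middle 50% 50.2 to 99.2), and 5 of the 7 were narrower than in WT, beside 75.3%.

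**Figure D4:**
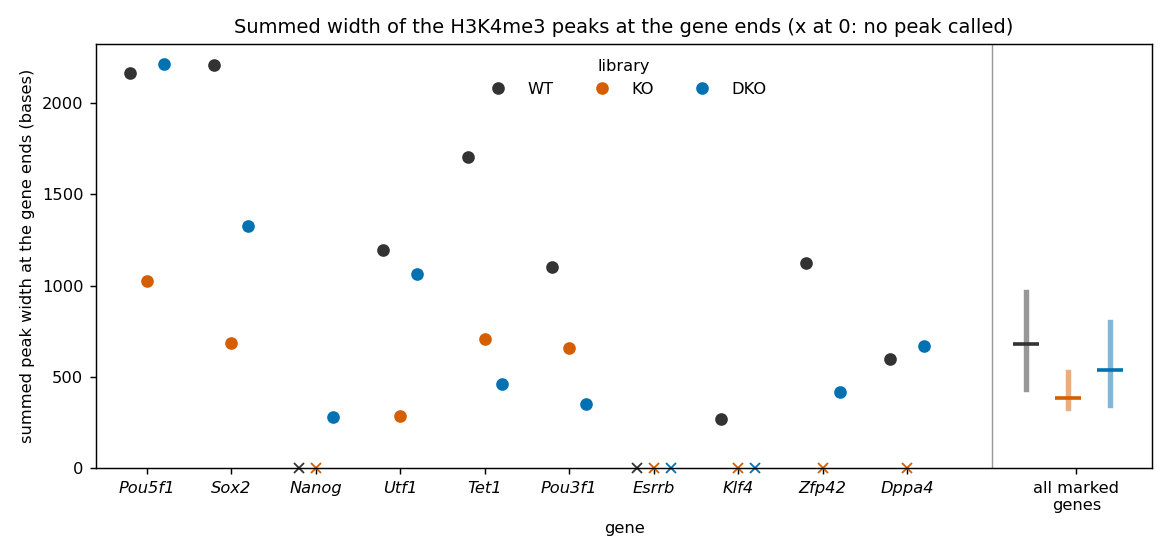
Summed width in bases of the H3K4me3 peaks within 1000 bases of an end, by gene and library (crosses at 0 mark no call), with the median and middle 50% of all marked genes at the right. The KO width is below the WT width at each of the 5 genes called in both, and the DKO width of Pou5f1, 2211 bases, is 102% of its WT width.

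The peaks lay mostly past the first end. Peaks counted through the far end, as for some at Sox2, Utf1 and Pou3f1, lie past it by their place alone. Positions were not counted over all marked genes, so the counts given here describe these genes alone. The summits of the 5 KO peaks lay 230 to 1895 bases past the first end, and all 9 summits in DKO lay 194 to 1980 bases past it. In WT 10 of 12 summits were past the first end, and the exceptions were the outer peaks of Klf4 and Pou3f1. No KO peak reached the first end of a span, although that of Tet1 covered the listed start, which lies inside its span, while 2 peaks did in WT (Pou5f1 and Zfp42) and 2 in DKO (Pou5f1 and Utf1). No other protein-coding gene had an end within 1000 bases of a peak counted at these genes.

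The genes called in KO were, for the most part, those with the widest WT marking. The WT-marked genes were put into 4 groups of nearly equal size by summed width. The widest group (966 to 2926 bases) held 6 of the 8, namely Pou5f1, Sox2, Utf1, Tet1, Pou3f1 and Zfp42. Of these 6, 5 were called in KO and 6 in DKO, beside 21.6% and 83.7% of the 1936 genes in that group. Klf4, by the 268 bases within the window, fell in the narrowest group, where 0.926% were called in KO and 31.2% in DKO. Dppa4 fell in the next narrowest, with 3.67% in KO and 54.5% in DKO. With 4 groups by WT -log10 q in place of width, the top one held Pou5f1 and Tet1 (23.0% of its genes called in KO), the next Sox2, Utf1, Klf4 and Zfp42 (9.08%), the next Pou3f1 (3.09%) and the lowest Dppa4 (0.721%).

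**Figure D5:**
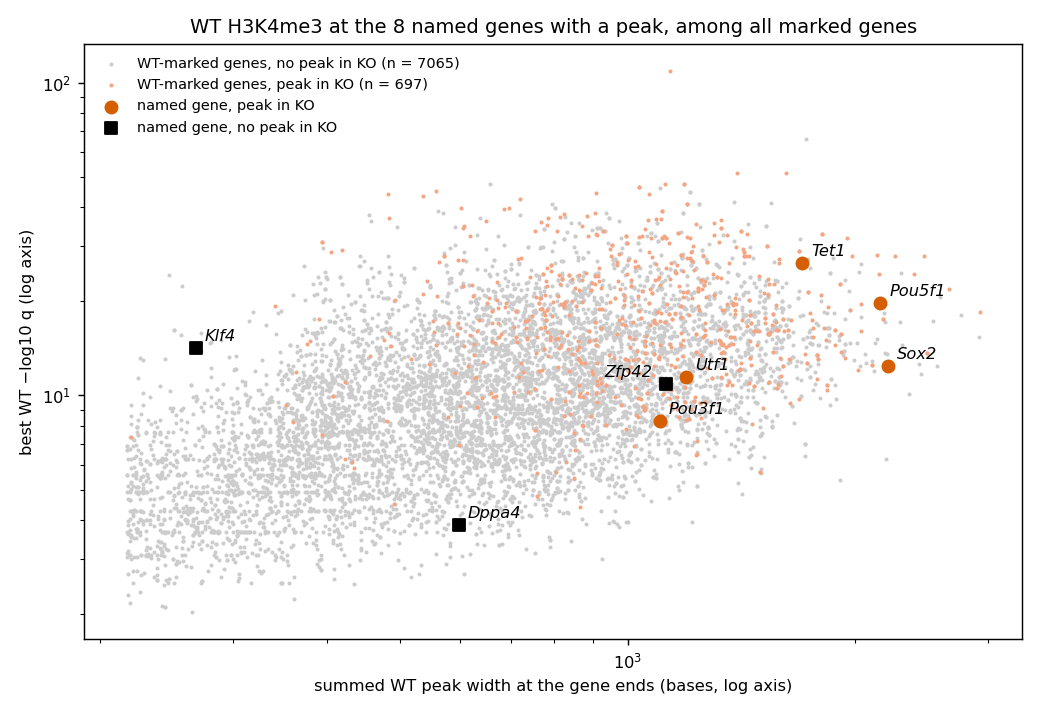
Best WT -log10 q against summed WT peak width at the gene ends (both axes logarithmic) for the 7762 protein-coding genes marked in WT, coloured by whether KO had a peak. Tet1, Pou5f1 and Sox2 lie at the wide edge, Klf4 at the narrow edge and Dppa4 near the lower edge.

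The KO library was the shallowest, at 0.651 of the WT fragments, and its lowest called peak had a -log10 p of 5.93. To see what that depth can show, WT pileup and local background were multiplied by the ratio of fragments with the enrichment kept. The Dppa4 peak would then have a pileup of 11.7 and a -log10 p of 4.38, below the lowest called value. The Klf4 peak would have a -log10 p of 12.2 and the Zfp42 peak 9.80, both above it, and neither was called. That lowest value is taken from the KO list itself and was 4.71 in the WT list, so it does not reflect depth alone. Why these genes had no KO call was not tested. Over all genes, 6329 would keep a peak at KO depth and 10.9% of them were called, against 5 of the 7 genes here that would. This scaling assumes equal enrichment in both libraries, and the share of fragments in peaks, which was not measured here, may differ between them.

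WDR5 was called near 2 of the 10 genes in WT and none in DKO. In WT this is beside 3.79% of all protein-coding genes in either list, and in DKO beside 1.05%. At Utf1 a peak lay 4860 bases beyond the far end, on chromosome 7 from 139949972 to 139950307, with a fold enrichment of 5.18 in list 1 and 4.59 in list 2 and its summit on the same base in both. It lay at an end of the lncRNA gene Gm16201 and overlapped no H3K4me3 peak, though WT peaks began at 139950415 and 139950929 (3.29 and 2.76). At Esrrb a peak from 86470159 to 86470384 lay inside the gene (5.57, list 1 alone) on the internal H3K4me3 peak of WT and DKO. With both lists required, Utf1 remained, beside 2.26% of all genes. The long span of Esrrb gives it more room for a peak than the other genes have. None of the 8 genes with H3K4me3 at an end in WT had a WDR5 peak at that end, the nearest being the one 4860 bases from Utf1. The same count was not made over all marked genes, so this does not set the 8 apart.

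P53 was called near none of the 10 genes in either genotype, beside 0.914% of all protein-coding genes in WT and 0.329% in DKO. At these shares, a count of 0 among 10 genes does not set them apart. The nearest WT P53 peak was 403 kb from Esrrb, and the median distance over the genes was 2346 kb. A window of 50000 bases also gave 0 genes for P53.

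The rest of the network was read from lists of related genes. Of 35 further genes of the naive and general network, 21 had a WT peak, of which 5 were called in KO and 16 in DKO. The WT count of 21 among 35 stands beside 35.5% of all protein-coding genes. The KO 5 were Zscan10, a zinc finger partner of OCT4 and SOX2 (fold enrichment 4.13 in WT, 5.46 in KO, 3.78 in DKO), Mybl2, a cell cycle MYB factor (5.61, 3.98 and 3.35), Cdh1, which encodes E-cadherin (5.51, 3.90 and 4.08), Mycn (4.39, 3.84 and 4.59) and Gdf3, a TGF-beta ligand (5.65, 3.74 and 6.59). Genes without a KO call included Lin28a and Sall4, chosen here after their values were seen, whose WT widths of 1786 and 2190 bases were close to those of Tet1 and Pou5f1. A wide WT peak therefore did not always go with a KO call. Il6st, a subunit of the LIF receptor, was marked in DKO and not in WT (3.08).

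Of 18 further formative and primed genes, 12 had a WT peak, 2 were called in KO and 6 in DKO. The 2 were Zic2 (3.32 in WT and 6.01 in KO) and Etv5 (4.74 and 3.67), and neither had a DKO peak. Otx2, Fgf5, Dnmt3b, Lef1, Sall2 and Etv4 were the 6 called in DKO. Among 5 genes of DNA methylation and its removal, 4 were marked in WT (Tet2, Tet3, Uhrf1 and Tdg), 0 in KO and Tet2 in DKO (5.35 in WT, 5.38 in DKO), so Tet1 was the TET gene called in KO. Of 17 POU, SOX and KLF paralogs, 9 were marked in WT, 2 in KO (Pou2f1 with 4.57 and Klf6 with 4.82) and 4 in DKO. As shares of the WT-marked genes, KO calls were 23.8% in the naive list, 16.7% in the formative list and 22.2% among paralogs. Among the genes of DNA methylation they were 0 of 4, and the share of all marked genes was 8.98%. DKO calls were 16 of 21 (76.2%) WT-marked genes in the naive list and 6 of 12 in the formative list. They were 4 of 9 (44.4%) among paralogs and 1 of 4 among the genes of DNA methylation, beside 59.8% of all marked genes. The lists are too short for these counts to set any of them apart from that share. In WT, 66.7% of the formative list, 52.9% of the paralogs and 4 of the 5 genes of DNA methylation were marked, beside 35.5%.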

How the data were processed

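The members and the other gene lists were chosen with earlier results of these data known. Per the file headers, the authors ran MACS (2.1.2 for some lists, 2.1.0.20150731 for others) on read pairs, with no control and q below 0.01. The background range was 10 kb, and no more than 2 duplicate fragments were kept. Build mm10, Bowtie2, SAMtools 1.5, bedtools and HOMER 4.10 are named in the submitters' processing notes, with no role given. The deposited pileup is a coverage signal in fragments, not scaled to depth. The deposited fold enrichment is a ratio to that library's own local background, and the deposited -log10 p and q come from the same comparison.

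The 35 peaks outside chromosomes 1 to 19, X and Y were left out. Gene spans are those of GRCm38.p6 in a RefSeq table. The first end of a span is the end at the listed start by strand, and for Pou3f1 and Dppa4 the lower coordinate end. The local background was computed as (pileup + 1) divided by fold enrichment, minus 1. It returned the deposited -log10 p within 0.05 for 99.5% of H3K4me3 peaks in KO and 99.9% in WT and DKO. Overlap counts were tested on simulated peaks. All 10 members are named. Of the other lists, genes with a KO peak are named, and the remaining ones were named after their values were seen. Python 3.11.15, pandas 2.3.3 and scipy 1.17.1 were used. Depth limits small peaks, and no interval is given because peak lists carry no counts outside peaks.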

Additional observations from a re-analysis of the deposited data

How the results depend on the processing

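No paired analysis was possible because the results come from no test and the H3K4me3 groups have 1 list each. Counting error and the single library per genotype limit every value, and small peaks such as that of Dppa4 lie near the threshold. The number of genes marked in WT, KO and DKO (8, 5 and 8) stayed within 1.5 times under windows of 2000 and 5000 bases, with peaks anywhere in the span and with -log10 q of at least 5. With a window of 500 bases, 3 genes were marked in KO, all 3 also in WT (Pou5f1, Utf1 and Tet1). Keeping peaks at or above their list's median fold enrichment, 4 genes were marked in WT, 2 in KO and 4 in DKO, and 1 WT-marked gene was also marked in KO and 1 in DKO. When each list was cut to its 918 peaks of highest -log10 q, 2 were marked in WT, 5 in KO and 1 in DKO, so that KO had the most, with 2 of the WT-marked genes marked in KO and 1 in DKO, and the median WT width was 1931.5 bases. Each of these settings counts fewer peaks, apart from KO in the cut to 918, where the list already has that length. What moved the counts was not tested. WT peaks taken at KO depth, a setting chosen after seeing the data, left 7 genes in WT, of which 5 were marked in KO. WDR5 lay near 1 gene with a window of 1000 bases and with both lists required, and near 1 to 2 genes when either list was left out (Esrrb is lost without list 1). P53 lay near 0 genes under all 7 alternatives. Of 21 summed widths, 3 changed with a window of 2000 bases (Klf4 in WT to 840, Zfp42 in DKO to 702 and Tet1 in DKO to 1036), and none of 21 highest fold enrichments changed when the whole span counted.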
